A study of Mus musculus with 4 samples.

Results

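The genes described here are 10 plasma membrane amino acid transporters, taken as a list of names from the 31053 genes annotated in the files: the cystine exchanger Slc7a11, the heavy chain Slc3a2, and Slc7a5, Slc7a8, Slc7a1, Slc1a5, Slc1a4, Slc1a3, Slc38a2 and Slc38a1. They were followed in the stromal vascular fraction of subcutaneous adipose tissue from females, profiled by droplet-based single-cell RNA sequencing of 3′ ends. The mice were either Cth+/+ or Cth-/-, the second without Cth, which encodes cystathionine gamma-lyase, the last enzyme of the route from methionine to cysteine. Each genotype was fed a control diet or a diet without cystine for 4 days, and values are always given in this order: Cth+/+ on the control diet, Cth+/+ on the cystine-free diet, Cth-/- on the control diet, Cth-/- on the cystine-free diet. Fat depots were freed of lymph nodes, pooled and digested, and each group had 1 library. The number of mice in a pool is not given in the sources used here, and neither is the tissue or stage at which Cth was deleted. With 1 library in a group there was no test between groups. Intervals are at 95% and cover the counting of UMIs alone. The effect of a diet or genotype and that of the pool or preparation cannot be told apart.

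Cystine, the oxidised dimer of cysteine, enters cells mainly through a heterodimer of Slc7a11 and Slc3a2, which exports glutamate in exchange, and is reduced to cysteine inside. Slc3a2 is also the partner of the neutral amino acid carriers Slc7a5 and Slc7a8. When an amino acid is short, the kinase Gcn2 raises translation of the transcription factor Atf4, which acts through amino acid response elements near Slc7a11, Slc38a2 and other transporter genes, while oxidants act on Slc7a11 through Nfe2l2.

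Transcript counts do not read control regions, so the stretch in which such elements lie is shown for Slc7a11, the 1 member with 2 matches. It lies upstream of the start of the gene in RefSeq (GRCm38.p6, chr3:50443633-50443699, minus strand, bases -86 to -20 from the start), is outside the transcript, and is printed 5′ to 3′ on the gene's strand with the amino acid response element core in capitals:

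Slc7a11 upstream stretch: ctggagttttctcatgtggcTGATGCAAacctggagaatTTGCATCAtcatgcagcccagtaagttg

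The core searched was TGATGNAA, on both strands, in windows from 250 bases before to 50 after the start. The first match lay at -66 to -59 on the strand of the gene and the second at -47 to -40 on the other strand. Of 32851 promoter windows of this length, 1134 (3.45%) held at least 1 match and 13 (0.0396%) held 2 or more. Windows were found for 7 of the 10 members, all except Slc7a5, Slc1a5 and Slc38a1, with 2 windows for Slc7a1. No window of the other 6 members held this core. The core of the antioxidant response element, TGACNNNGC, which is bound by Nfe2l2 and stands in 3338 windows (10.2%), matched once in 1 of the 2 windows of Slc7a1 (-11 to -3) and once upstream of Slc38a2 (-27 to -19). The 2 cores do not overlap in these windows. A match is only a match of letters.

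The libraries held 4394 to 7312 barcodes and 15948807 to 30944977 UMIs (unique molecular identifiers, 1 per captured transcript), with medians of 2535 to 3379 UMIs per barcode. Cth gave 9, 11, 0 and 0 UMIs, and the upper limits in the Cth-/- libraries were 0.140 and 0.231 UMIs per 1000000, so the labels were checked on few transcripts. Pairs of libraries shared 40 to 69 barcode sequences. Levels are UMIs of a gene per 1000000 UMIs in the same barcodes, written CPM, and were compared between cells and libraries but not between genes, since 3′ UMIs have no length scale. Cell types were gates on marker UMIs: Dcn for progenitors, Cdh5, Pecam1 and Cldn5 for endothelium, Csf1r, Cd68 and Lyz2 for phagocytes, Cd3d, Cd3e and Cd3g for T cells, Rgs5 and Notch3 for mural cells, and Krt8 and Krt18 for epithelium. All 4 markers kept for checking each gate were highest in it in every library, except for 1 and 2 of the 4 mural markers in the Cth+/+ cystine-free and Cth-/- control libraries. The mural gate is the least pure, since 76.1%, 84.5%, 81.2% and 92.6% of its barcodes also passed another gate. The endothelial gate is mixed as well, and unequally between libraries, with 30.4%, 39.7%, 29.8% and 14.7% of its barcodes in another gate. In the progenitor gate the summed level of Pdgfra, Col1a1, Cd34 and Lum was 6373, 8202, 6910 and 2017 CPM, and the low last value stands beside every progenitor value below, where its part was not tested. The Cth-/- cystine-free library also stood apart in adipocyte transcripts: Adipoq, Plin1, Cidec and Lipe summed to 40.1, 26.3, 34.97 and 578 CPM over all barcodes. Barcodes with at least 5 Adipoq UMIs numbered 0, 1, 4 and 62. None of the 62 passed the progenitor gate. Their median depth was 25404.5 UMIs, their median mitochondrial share 18.6%, and together they held 9.31% of the library's UMIs. Results that rest on them are given with and without them.

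Slc7a11 transcripts were found mostly in phagocytes. In the phagocyte gate its level was 15.6, 21.3, 14.02 and 14.2 CPM, from 46, 91, 60 and 40 UMIs. The level in the progenitor gate was 1.35, 1.27, 0.854 and 0.738 CPM, and in the endothelial gate 0.920, 1.05, 0.593 and 0.901 CPM. T, mural and epithelial gates gave 0 to 4 UMIs in each library, at most 2.99 CPM. The lowest phagocyte level thus lay above the highest level of the other 5 gates, which could not be ordered among themselves at this depth. Barcodes of no gate held 5.80, 2.07, 5.74 and 5.62 CPM. Over all barcodes Slc7a11 stood at 3.12, 3.81, 3.01 and 4.08 CPM, from 76, 118, 79 and 65 UMIs in 59, 74, 57 and 40 barcodes, and barcodes that passed the phagocyte gate alone supplied 52.6%, 69.5%, 68.4% and 58.5% of these UMIs. After each barcode was thinned to 1000 UMIs, 1.13%, 2.21%, 1.23% and 0.903% of phagocyte barcodes still held an Slc7a11 UMI, against 3.73%, 5.29%, 3.33% and 2.87% before thinning. The thinned share of the endothelial gate, used as a background, was 1 of 1239, 0 of 1282, 0 of 513 and 0 of 967 barcodes, where the counts of 0 allow shares of up to 0.234%, 0.585% and 0.310%. Median depths before thinning were 2602, 3302, 2927 and 2906 UMIs in phagocytes and 2377, 3839.5, 2289.5 and 2405.5 UMIs in endothelium.

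**Figure D1:**
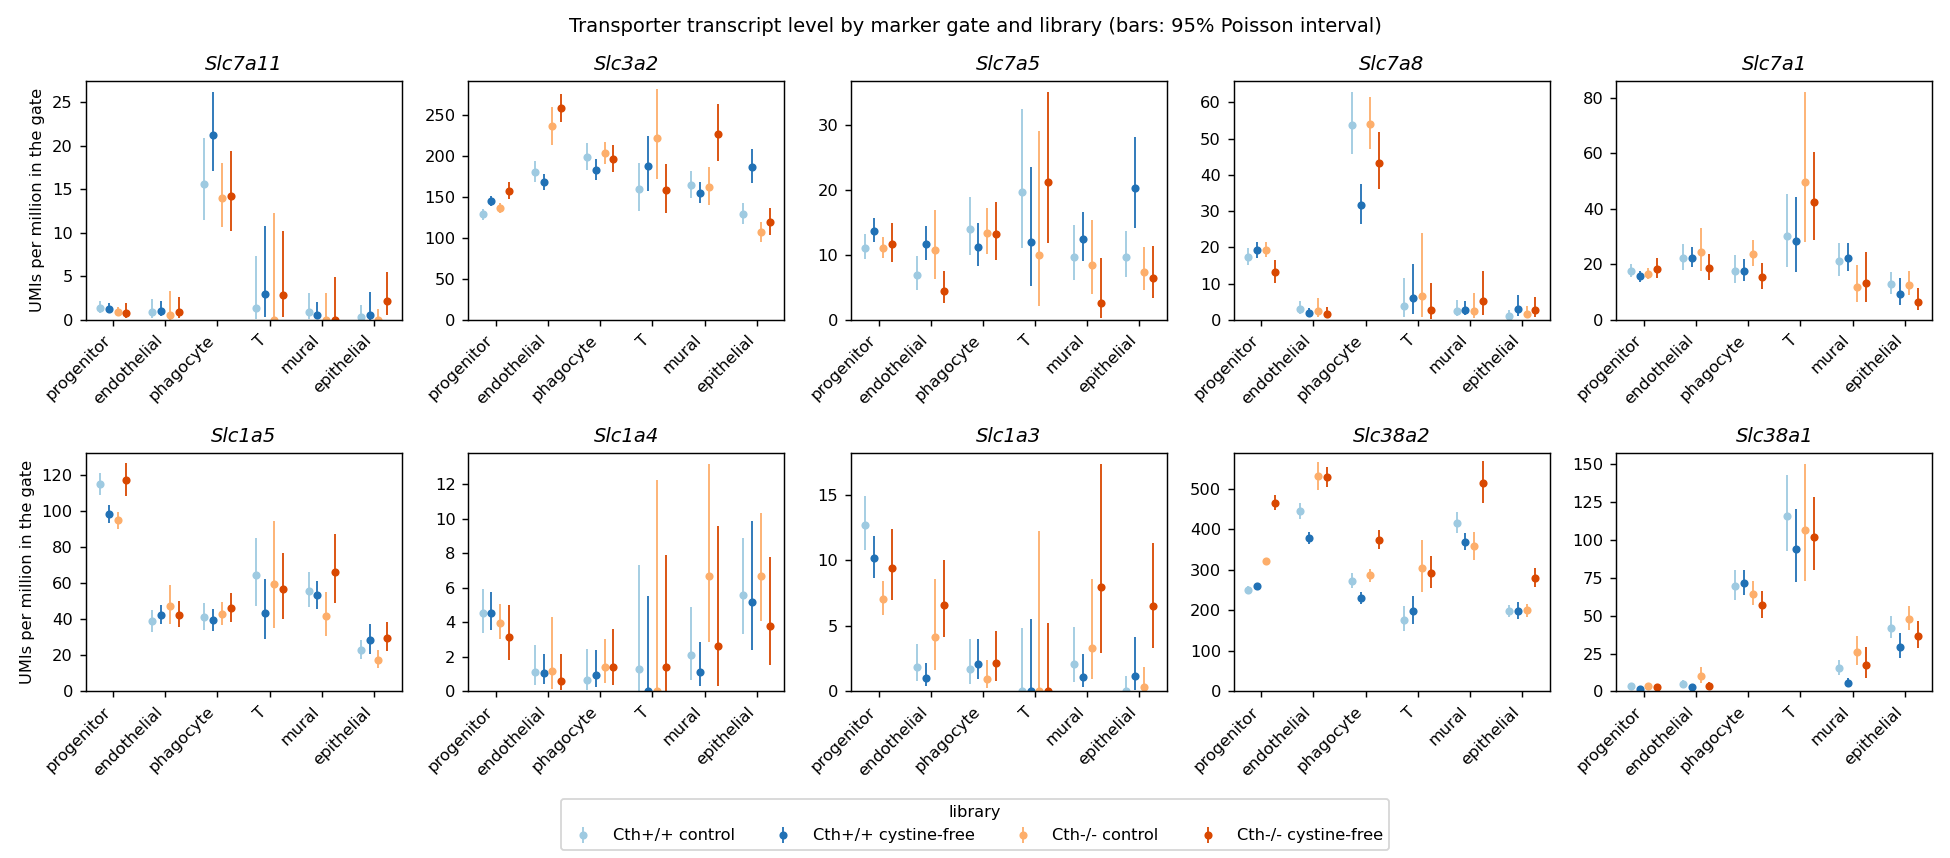
Level of each transporter (vertical axis, CPM within the gate, own scale in each panel, starting at 0) in 6 marker gates (horizontal axis) and 4 libraries (colours), with 95% Poisson intervals. Slc7a11 and Slc7a8 were highest in phagocytes, Slc38a1 in T cells and Slc1a5 in progenitors, while Slc3a2 lay between 107 and 258 CPM in every gate.

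Within the phagocyte gate, the 35, 57, 40 and 23 barcodes with an Slc7a11 UMI differed from the rest. Mrc1, the mannose receptor of resident macrophages, stood at 202, 214, 296 and 200 CPM in them and at 1342, 960, 1376 and 1343 CPM in the other phagocyte barcodes. Ctss, a lysosomal cathepsin, was higher in 4 of 4 (1774, 1484, 1043 and 1571 against 879, 931, 846 and 929 CPM). Slc3a2, the partner chain, was higher in 4 of 4 as well: 304, 264, 243 and 286 CPM with an Slc7a11 UMI against 192, 177, 201 and 192 CPM without. These levels rest on few UMIs, 51 in Cth+/+ control (304 CPM, 226 to 399). The 4 of 4 counts directions alone and does not say that each Slc3a2 difference exceeded counting error. The neutrophil transcript S100a8 was at 845, 2031, 982 and 0 CPM in the Slc7a11 barcodes and at 5.77, 61.2, 36.5 and 90.6 CPM in the others, so S100a8 was higher in the Slc7a11 barcodes in 3 of the 4 libraries and lower in Cth-/- cystine-free. Barcodes with an Slc7a11 UMI were also deeper, with medians of 4188, 5347, 4751 and 6139 UMIs against 2581, 3243, 2868 and 2856 UMIs. The part of depth and of neutrophil RNA in these differences was not tested. Mrc1, Ctss and S100a8 were named after their values were seen. Adgre1, C1qa, Csf1r, Cd68, Lyz2 and Retnlg were also read in these barcodes and are not printed here, so the named genes do not stand for all markers.

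Across the 24 combinations of 6 gates and 4 libraries, the genes whose log2(CPM + 1) followed Slc7a11 most closely were 4930455G09Rik (Pearson r = 0.965), Rgs18 (0.952), Clec4a3 (0.946), Wdfy4 (0.940) and Cd180 (0.938), out of 9333 candidates. All 5 had their highest mean in the phagocyte gate. That follows from choosing them by likeness to Slc7a11 over the same gates, and adds no support to its place in phagocytes. These correlations describe 24 points that share libraries, depth and overlapping barcodes.

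Slc3a2, the heavy chain that carries Slc7a11, Slc7a5 and Slc7a8 to the membrane, was found in all gates. Its progenitor level was 129, 145.5, 136 and 158 CPM and its phagocyte level 199, 183, 204 and 196 CPM. In endothelium it was 181, 168, 236 and 258 CPM, with both Cth-/- libraries above both Cth+/+ libraries. Over the 24 gate and library values its closest gene was Ube2d3 (r = 0.850).

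Slc7a8, a light chain for neutral amino acids, was highest in phagocytes (53.7, 31.6, 54.0 and 43.4 CPM), next in progenitors (17.3, 19.1, 19.3 and 13.1 CPM), and at most 6.64 CPM in the other gates. The phagocyte value was above the progenitor value in each library. Its closest gene was Cmklr1 (r = 0.954), a chemoattractant receptor. Slc7a5, the light chain for large neutral amino acids such as leucine, showed no such preference: progenitor levels were 11.1, 13.7, 11.0 and 11.6 CPM and phagocyte levels 13.9, 11.2, 13.3 and 13.2 CPM, and its T cell values (19.7, 11.96, 9.96 and 21.2 CPM) came from 15, 8, 3 and 15 UMIs. Pus1 was its closest gene (r = 0.780).

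Slc7a1, the carrier of arginine and lysine, was highest in the T gate of every library, at 30.2, 28.4, 49.8 and 42.5 CPM from 23, 19, 15 and 30 UMIs. Progenitor levels were 17.6, 15.7, 16.6 and 18.4 CPM and endothelial levels 22.3, 22.3, 24.3 and 18.6 CPM. The intervals of the T gate overlapped the endothelial ones in 3 of the libraries, so only the Cth-/- cystine-free order stands clear of counting error. Cpsf6 was the closest gene (r = 0.938).

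Slc1a5, a sodium-dependent exchanger of glutamine and other small neutral amino acids, was highest in progenitors of every library: 115, 98.3, 94.98 and 117 CPM, against 38.9, 42.5, 47.5 and 42.4 CPM in endothelium and 41.1, 39.5, 42.7 and 46.2 CPM in phagocytes. Progenitor-only barcodes supplied 69.6%, 69.0% and 78.0% of its UMIs in the first 3 libraries and 37.6% in the Cth-/- cystine-free library, where 38.1% came from the 62 Adipoq barcodes. Slc1a4, which carries alanine, serine and cysteine, was measured near the limit of detection, with at most 6.69 CPM in any gate. Slc1a3, a glutamate and aspartate carrier, reached 12.7, 10.1, 7.01 and 9.41 CPM in progenitors and gave 0 UMIs in T cells of all 4 libraries. The closest genes were Kif2a for Slc1a5 (r = 0.907), Wnt5a for Slc1a4 (r = 0.929) and Samd4b for Slc1a3 (r = 0.883), the last 2 for members that did not themselves pass the minimum of 20 CPM in any gate set for candidates.

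Slc38a2, the sodium-coupled carrier of small neutral amino acids, was highest in the endothelial gate of each library, at 445, 380, 531 and 530.0 CPM, followed by the impure mural gate at 417, 370, 359 and 515 CPM. Their intervals overlapped in every library except Cth-/- control. Its closest gene was the RNA helicase gene Ddx3x (r = 0.948). Slc38a1, its relative, marked the lymphoid and myeloid gates: it stood at 116, 94.2, 106 and 102 CPM in T cells, 69.7, 71.6, 64.5 and 56.9 CPM in phagocytes, and 42.1, 29.5, 47.8 and 36.7 CPM in epithelium. Progenitors held only 3.70, 1.90, 3.29 and 2.77 CPM of Slc38a1. Its closest gene was Sema4d (r = 0.975), which encodes a semaphorin of T cells.

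The cystine-free diet was first compared with the control diet in Cth-/- mice, which lacked the enzyme on both diets and dietary cystine only on the cystine-free diet. Members were taken as measured when the library with more of the transcript held 10 CPM and 10 UMIs or more, and as apart at a ratio of 1.5-fold or more, which is a size and not a test. Over all barcodes 8 of the 10 members were measured and 2 were apart, Slc1a3 higher and Slc7a8 lower, while 21.2% of all measured genes were apart. The median log2 ratio was 0.14 over the 8 members and 0.03 over all 8983 measured genes. Sums over all barcodes mix cell number and RNA per cell, which cannot be told apart there, and the progenitor gate held 62.4% of the UMIs of the control library and 34.0% of those of the cystine-free library. In the progenitor gate 6 members were measured and 0 were apart, against 19.8% of all genes, with medians of 0.18 and 0.00. 

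Slc7a11 itself was too low over all barcodes and in progenitors to count as measured. Its log2 diet ratio over all barcodes was 0.44 (-0.06 to 0.93) in Cth-/-, 0.58 (0.08 to 1.07) without the Adipoq barcodes, and 0.29 (-0.14 to 0.73) in Cth+/+. In phagocytes of Cth-/- mice the diets differed by less than counting error (14.2 against 14.02 CPM, log2 ratio 0.02, -0.59 to 0.62), an interval that still allows a difference of about 1.5-fold either way. In Cth+/+ phagocytes the cystine-free library was higher, at 21.3 against 15.6 CPM, but the interval of the log2 ratio held 0 (0.45, -0.08 to 0.99). On the cystine-free diet Cth-/- phagocytes held less Slc7a11 than Cth+/+ phagocytes, by 0.58 on the log2 scale (-0.58, -1.16 to -0.03). S100a8, S100a9 and Retnlg, the neutrophil markers, summed to 91.8, 418, 160.0 and 143 CPM in the phagocyte gate, and were highest where Slc7a11 was highest. Elsewhere the orders differed: the sum was lowest in Cth+/+ control, and Slc7a11 was lowest in Cth-/- control. The part of the neutrophil markers in the ratio was not tested.

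Slc38a2 differed between the diets by more than counting error in Cth-/- progenitors, with the cystine-free library higher, and by less than that in Cth+/+ progenitors. Its progenitor level was 252, 261, 322 and 466 CPM, from 2990, 4111, 5279 and 2526 UMIs. The Cth-/- cystine-free library lay above the other 3, and the 2 Cth+/+ libraries were close together. The log2 diet ratio in Cth-/- progenitors was 0.53 (0.46 to 0.60), just short of 1.5-fold, and 0.05 (-0.02 to 0.12) in Cth+/+ progenitors. The difference between these 2 ratios was 0.48 (0.39 to 0.58). In phagocytes the level was 274, 230, 287 and 375 CPM, with a diet ratio of 0.39 (0.27 to 0.51) in Cth-/- and -0.25 (-0.39 to -0.11) in Cth+/+. The same direction in Cth-/- was found in the mural gate (0.52, 0.32 to 0.72) and the epithelial gate (0.49, 0.31 to 0.66). The mural gate is not separate from the others, since 81.2% and 92.6% of its barcodes in the Cth-/- libraries also passed another gate. For the endothelial gate these shares were 29.8% on the control diet and 14.7% on the cystine-free diet. In endothelium and T cells that direction was not found: 531 and 530.0 CPM gave -0.00 (-0.12 to 0.11) in endothelium, and T cells gave -0.06 (-0.42 to 0.31). Barcodes of no gate, which hold 54 of the 62 Adipoq barcodes, stood at 223 against 265 CPM in Cth-/- (-0.25); without the Adipoq barcodes the direction turned, to 364 against 265 CPM. Endothelium was also the gate in which Slc38a2 was highest on the control diet. The progenitor ratio stayed between 0.51 and 0.57 under every alternative run, doubled gate threshold and 1-gate barcodes included.

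**Figure D2:**
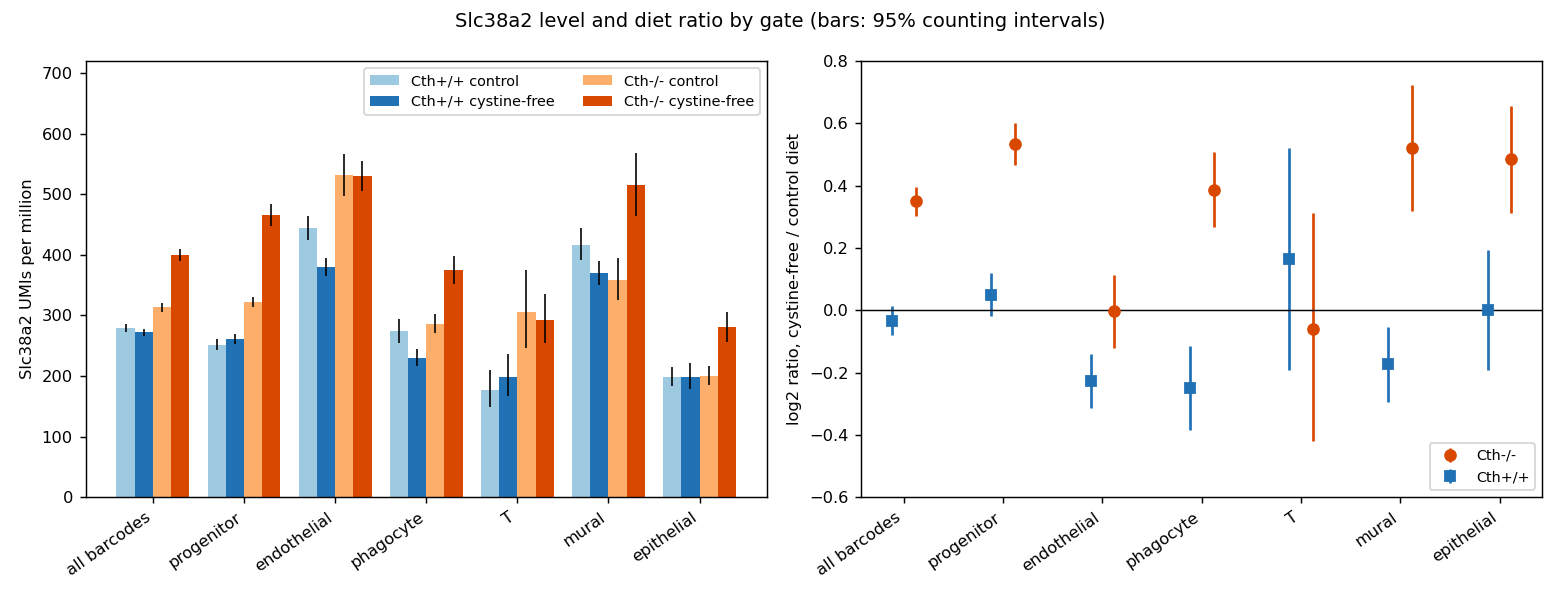
Slc38a2 level in CPM (left, bars from 0, 4 libraries) and log2 ratio of the cystine-free to the control diet in each genotype (right), over all barcodes and by gate, with 95% counting intervals. In Cth-/- the ratio was above 0 in progenitor, phagocyte, mural and epithelial gates and at -0.00 in endothelium.

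Slc1a3 gave the largest ratio over all barcodes, and it came from few barcodes. The level was 6.89, 5.88, 4.99 and 27.1 CPM, from 168, 182, 131 and 433 UMIs, a log2 diet ratio of 2.45 (2.16 to 2.74) in Cth-/-. Of the 433 UMIs, 350 (80.8%) lay in the 62 Adipoq barcodes. Slc1a3 was at 236 CPM in them and at 5.74 CPM in the rest of the library, 41.1-fold apart, was found in 55 of the 62, and the 2 highest barcodes held 10.9% of their UMIs. Without the Adipoq barcodes the diet ratio was 0.20 (-0.21 to 0.61) and Slc1a3 was below the minimum level. Slc1a5 behaved alike: 75.5, 68.6, 73.1 and 103 CPM over all barcodes gave a diet ratio of 0.49 (0.39 to 0.58) in Cth-/-, which was -0.06 (-0.17 to 0.05) without the Adipoq barcodes. Slc1a5 was at 420 CPM in the Adipoq barcodes and 70.0 CPM in the rest. In the progenitor gate, which holds none of these barcodes, Slc1a5 had a diet ratio of 0.30 (0.17 to 0.44) in Cth-/- and of -0.23 (-0.34 to -0.12) in Cth+/+. Adipocyte transcripts were still found in that gate, where Adipoq, Plin1, Cidec and Lipe summed to 9.68, 7.67, 11.6 and 38.2 CPM. Their part in the Slc1a5 ratio was not tested.

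The other 8 members were lower in the Adipoq barcodes than in the rest of that library. Slc38a2 was at 102 against 430 CPM, Slc3a2 at 76.1 against 185 CPM, Slc7a1 at 2.69 against 18.3 CPM and Slc38a1 at 0.674 against 24.5 CPM, and Slc1a4 was at 0.674 CPM, from 1 UMI, against 2.14 CPM, with an interval of the ratio that held 0. Slc7a11, Slc7a5 and Slc7a8 gave 0 UMIs, for which the upper limit is 2.49 CPM. Cidec, a lipid droplet protein of adipocytes that did not choose these barcodes, stood at 1789 against 35.6 CPM. Without the Adipoq barcodes 7 members were measured over all barcodes and 0 were apart for the diet in Cth-/-, where 19.3% of genes were.

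**Figure D3:**
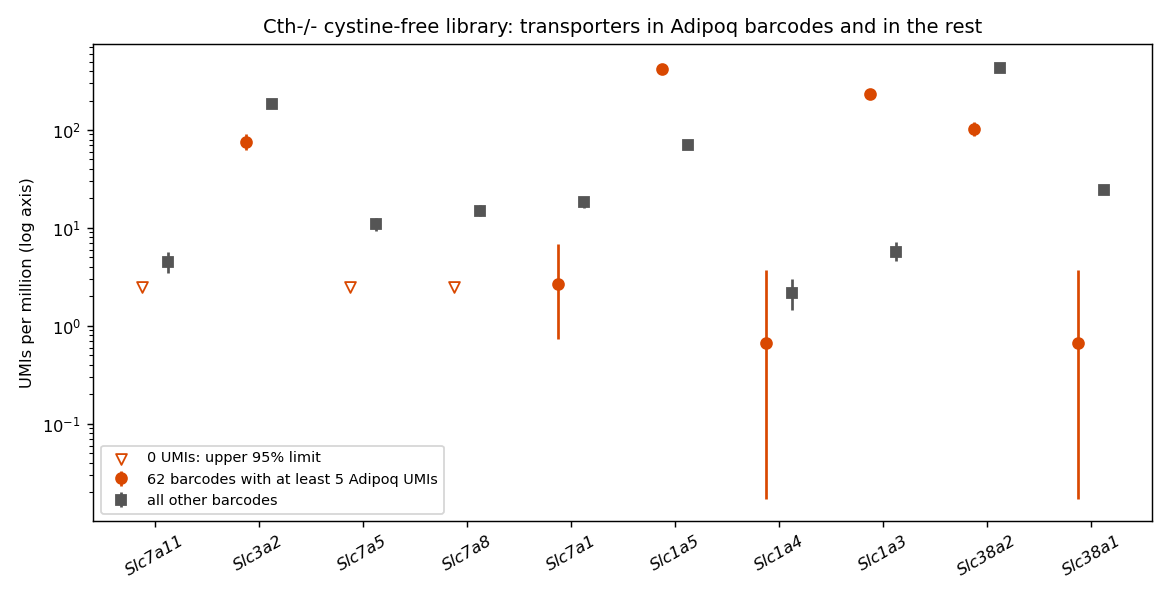
Transporter levels (vertical axis, CPM, log axis) in the 62 barcodes with at least 5 Adipoq UMIs and in all other barcodes of the Cth-/- cystine-free library, with 95% Poisson intervals. Slc1a3 and Slc1a5 were higher in the Adipoq barcodes, at 236 and 420 CPM, and open triangles mark genes with 0 UMIs at their upper limit.

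Slc7a8 was the 1 member called lower over all barcodes. Its level was 15.9, 14.9, 21.0 and 13.7 CPM, and the log2 diet ratio in Cth-/- was -0.62 (-0.85 to -0.39). It was -0.56 (-0.95 to -0.18) in progenitors and -0.31 (-0.64 to 0.01) in phagocytes, and -0.48 (-0.71 to -0.25) over all barcodes without the Adipoq barcodes, which is under 1.5-fold. Slc3a2 was higher by 0.21 (0.14 to 0.28) over all barcodes in Cth-/- and by 0.10 (0.03 to 0.16) in Cth+/+, the second at -0.03 as a mean over barcodes. Slc7a5, at 11.7, 13.7, 12.2 and 9.91 CPM, gave -0.30 (-0.59 to -0.02) in Cth-/- and 0.23 (0.01 to 0.45) in Cth+/+, the second at -0.42 after thinning. Slc7a1 (18.9, 17.2, 18.3 and 16.8 CPM) and Slc38a1 (23.5, 18.4, 21.1 and 22.3 CPM) lay within counting error of 0 in Cth-/-, at -0.12 (-0.34 to 0.10) and 0.08 (-0.12 to 0.27). Slc1a4, at 3.32, 2.91, 3.46 and 2.01 CPM, was not measured.

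**Figure D4:**
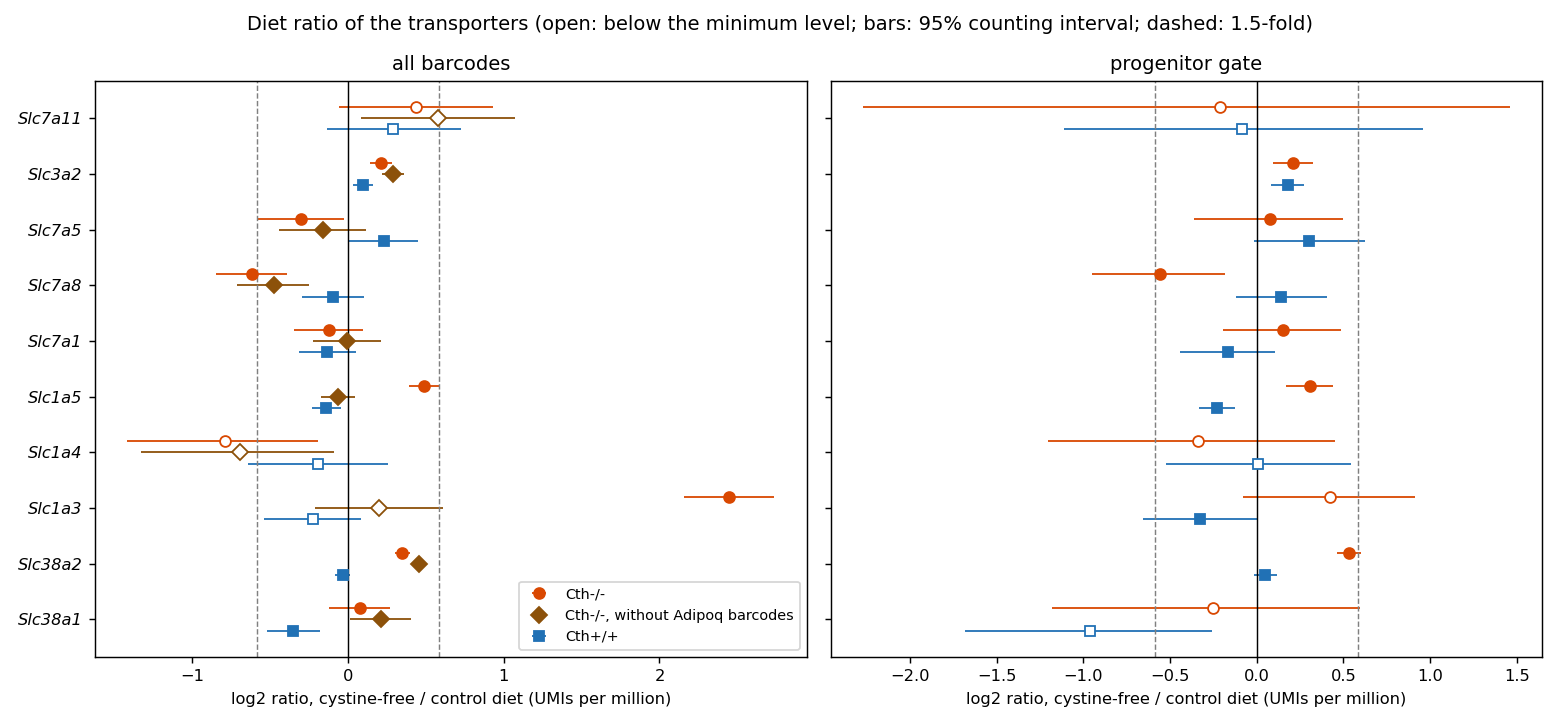
Log2 ratio of the cystine-free to the control diet for each transporter (horizontal axis, 95% counting intervals) over all barcodes (left) and in the progenitor gate (right), in Cth-/- (circles), in Cth-/- without Adipoq barcodes (diamonds) and in Cth+/+ (squares). Open symbols are below the minimum level and dashed lines mark 1.5-fold; Slc1a3 moved from 2.45 to 0.20 without the Adipoq barcodes and Slc38a2 from 0.35 to 0.46.

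In the smaller gates, members apart for the diet in Cth-/- were few and rested on few UMIs. In endothelium 6 were measured and 2 were lower, against 16.7% of all genes: Slc7a5 (4.51 against 10.7 CPM, 15 against 18 UMIs) and Slc38a1 (3.61 against 10.1 CPM, 12 against 17 UMIs). In phagocytes 8 were measured and 1 was lower, against 15.3% of all genes, namely Slc7a1 (15.3 against 23.8 CPM, log2 -0.64, -1.19 to -0.11). In T cells 1 of 6 was higher, against 35.3% of all genes: Slc7a5, from 15 and 3 UMIs. In the mural gate 2 of 5 were apart, against 31.8% of all genes, Slc1a5 higher (66.3 against 41.8 CPM) and Slc38a1 lower (17.2 against 25.9 CPM), and Slc38a1 was under 1.5-fold without the Adipoq barcodes (-0.58). In epithelium 2 of 5 were apart, against 21.5% of all genes, Slc1a5 higher (29.7 against 17.4 CPM) and Slc7a1 lower (6.48 against 12.7 CPM); without the Adipoq barcodes the Slc1a5 ratio was 0.41 (-0.21 to 1.03), under 1.5-fold.

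The diet comparison in Cth+/+ mice showed few members apart. Over all barcodes 7 members were measured and 0 were apart, against 3.79% of all genes, with a median log2 ratio of -0.10 against -0.07 over all genes. In progenitors 7 were measured and 0 were apart, against 2.91% of all genes, with medians of 0.05 and -0.08. In phagocytes 1 of 8 was apart, against 10.7% of all genes: Slc7a8 was lower, at 31.6 against 53.7 CPM (log2 -0.77, -1.11 to -0.43, 135 against 158 UMIs). In endothelium 1 of 5 was apart, against 6.22% of all genes, with Slc7a5 higher (11.6 against 6.90 CPM, log2 0.75, 0.12 to 1.41); with barcodes thinned to 1000 UMIs this ratio was -0.34, from 9 against 11 UMIs. In T cells 1 of 6 was apart, against 32.7% of all genes, with Slc7a5 lower from 8 against 15 UMIs. In the mural gate 1 of 6 was apart, against 14% of all genes, with Slc38a1 lower (5.64 against 15.2 CPM). In epithelium 1 of 6 was apart, against 20.8% of all genes, with Slc7a5 higher (20.2 against 9.66 CPM).

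Loss of Cth was compared on each diet; the 2 comparisons share libraries with those above. On the control diet 7 members were measured over all barcodes and 0 were apart, against 7.08% of all genes, with medians of 0.02 and -0.05. In progenitors 1 of 7 was apart, against 2.54% of all genes: Slc1a3 was lower in Cth-/-, at 7.01 against 12.7 CPM (115 against 151 UMIs, log2 -0.86, -1.22 to -0.50). Slc38a2 was 0.35 (0.29 to 0.42) higher there, at 322 against 252 CPM, and Slc1a5 was lower (-0.28, -0.38 to -0.17). In endothelium 2 of 6 were apart, against 11.3% of all genes, Slc7a5 and Slc38a1, both higher in Cth-/- and from 18 and 17 UMIs there, with intervals that held 0. In T cells 3 of 6 were apart, against 38% of all genes: Slc38a2 was higher in Cth-/- (305 against 177 CPM, 0.78, 0.39 to 1.18), and Slc7a1 (higher) and Slc7a5 (lower) had intervals that held 0. In the mural gate 2 of 5 were apart, against 24.8% of all genes, Slc38a1 higher (25.9 against 15.2 CPM) and Slc7a1 lower (11.7 against 21.1 CPM, an interval that held 0). In phagocytes 0 of 8 were apart, against 6.14% of all genes, and in epithelium 0 of 5, against 9.74% of all genes.

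On the cystine-free diet 8 members were measured over all barcodes and 1 was apart, Slc1a3, against 19.3% of all genes. Without the Adipoq barcodes 7 were measured and 1 was apart, now Slc38a2 (430 against 272 CPM, log2 0.66, 0.61 to 0.71), against 18.4% of all genes, and Slc1a3 was at -0.04 (-0.43 to 0.35). In progenitors 1 of 7 was apart, against 24% of all genes: Slc38a2 was higher in Cth-/-, at 466 against 261 CPM (0.84, 0.77 to 0.91). In phagocytes 1 of 8 was apart, again Slc38a2 (375 against 230 CPM, 0.70, 0.58 to 0.83), against 19.3% of all genes. In endothelium 2 of 5 were apart, against 25.2% of all genes, Slc3a2 higher (258 against 168 CPM, 0.62, 0.49 to 0.75) and Slc7a5 lower (4.51 against 11.6 CPM, -1.36, -2.27 to -0.55). In epithelium 2 of 5 were apart, against 26.5% of all genes, and here Slc3a2 was lower in Cth-/- (119 against 187 CPM, -0.65, -0.90 to -0.40), as was Slc7a5 (12 against 35 UMIs). In the mural gate 3 of 6 were apart, against 35.2% of all genes, Slc38a1 higher and Slc7a5 and Slc7a1 lower, from 13, 2 and 10 UMIs in Cth-/-, and the interval for Slc7a1 held 0. In T cells 1 of 6 was apart, against 33.2% of all genes, with Slc7a5 higher from 15 against 8 UMIs and an interval that held 0.

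Regulators of Slc7a11 and users of the imported cystine were read from 2 lists of 6 genes each. In Cth-/- progenitors all 6 regulators were measured and 2 were apart for the diet, against 19.8% of all genes, both higher: Atf4, the factor of the amino acid response (380 against 250 CPM, log2 0.61, 0.53 to 0.68), and Bach1, a repressor that competes with Nfe2l2 (68.4 against 41.0 CPM, 0.74, 0.55 to 0.93). The oxidant-responsive factor Nfe2l2 (185 against 140.3 CPM, 0.40) and Trp53 (0.13) were under 1.5-fold, as were Keap1 (-0.43) and Cd44 (-0.33), which were lower. Over all barcodes 0 of the 6 were apart, against 21.2% of all genes, and Atf4 was at 361 against 271 CPM (0.41, 0.36 to 0.46). Of the users, 4 were measured in each. Gclc, the catalytic subunit of the first enzyme of glutathione synthesis, was higher in Cth-/- progenitors (66.6 against 39.2 CPM, 0.76, 0.57 to 0.95) and was the 1 of 4 users apart there, against 19.8% of all genes. Gpx4, the glutathione peroxidase of membrane lipids, was the 1 of 4 users apart over all barcodes, against 21.2% of all genes (721 against 449 CPM, 0.68, 0.65 to 0.72), and was at 556 against 449 CPM (0.31, 0.27 to 0.35) without the Adipoq barcodes. In Cth+/+ mice Gclc was lower on the cystine-free diet over all barcodes, at 31.0 against 51.9 CPM (-0.74, -0.86 to -0.62), the 1 of 4 users apart there, against 3.79% of all genes.

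A further list held 27 amino acid transporters of the plasma membrane and lysosome. Over all barcodes 16 of them were measured for the diet in Cth-/- and 4 were apart, against 21.2% of all genes. Slc7a10, a carrier of small neutral amino acids (11.0 against 0.190 CPM), and Slc36a2, a proton-coupled carrier of glycine and proline (42.3 against 6.16 CPM), were higher, and 83.0% and 85.2% of their UMIs in the cystine-free library lay in the 62 Adipoq barcodes. Slc6a6, the taurine carrier, was higher with 252 against 120 CPM (1.07, 1.00 to 1.14), and only 3.68% of its UMIs lay in those barcodes. Slc38a4 was lower, with 3.32 against 16.9 CPM (-2.34, -2.78 to -1.93). In progenitors 14 were measured and 4 were apart, against 19.8% of all genes: Slc6a6 (89.5 against 54.3 CPM), Slc16a10, a carrier of aromatic amino acids (11.1 against 5.30 CPM), and Slc43a1, a carrier of large neutral amino acids (22.5 against 12.6 CPM), were higher, and Slc38a4 was lower (8.30 against 26.5 CPM, -1.67, -2.15 to -1.23). The medians were 0.14 over all barcodes and 0.24 in progenitors. Without the Adipoq barcodes 13 were measured and 3 were apart over all barcodes, against 19.3% of all genes, Slc6a6 higher and Slc38a4 and Slc38a10 lower. In Cth+/+ mice 1 of 11 was apart over all barcodes, against 3.79% of all genes: Slc7a2, the arginine carrier of the same subfamily as Slc7a1, was at 13.6 against 51.6 CPM (-1.93, -2.09 to -1.77).

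The member genes lie on 8 chromosomes of GRCm38 in GENCODE. Slc7a11 spans chr3:49892526-50443614 on the minus strand, and Slc38a1 (chr15:96571418-96642913) and Slc38a2 (chr15:96687392-96699730) are neighbours on the minus strand of chromosome 15, where Slc1a3 also lies (chr15:8634124-8710764). The neighbours Slc38a1 and Slc38a2 differed in where they were found: Slc38a1 was lowest in progenitors in 4 of 4 libraries, and Slc38a2 was never lowest there.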

How the data were processed

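The deposited files hold raw UMI counts per gene and barcode that the authors made with Cell Ranger 3.0.0 on mm10, per the file headers and the submitters' processing notes; whole-number counts were used as deposited, with no removal of doublets (4.76% to 8.64% of barcodes per library passed more than 1 gate). Python 3.11.15, numpy 2.4.6, scipy 1.17.1, pandas 2.3.3 and matplotlib 3.10.9 were used. Counts were summed over barcodes of a library or gate and divided by all UMIs there. The progenitor gate asked for Dcn at 0.2% or more of a barcode's UMIs, and the others for summed marker UMIs of at least 3 (endothelial), 4 (phagocyte), 2 (T), 4 (mural) and 5 (epithelial). Levels carry exact Poisson intervals, ratios exact conditional binomial ones and shares exact Clopper-Pearson ones; UMIs of 1 cell are not independent, and the intervals hold no spread between animals. A count of 0 was set against a floor of 3 UMIs. Depth was 15948807 to 30944977 UMIs per library.

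The members, gene lists and gates were chosen with earlier results of these data known. Named genes were all members, the listed genes that were apart, and for each member the gene of highest Pearson r over 24 gate and library values (5 genes for Slc7a11), among genes with at least 20 CPM in a gate and 100 UMIs. Slc7a2, Slc38a10, Cidec and the genes compared within phagocytes were named after their values were seen. The list counts were checked on simulated data. Alternatives were barcode filters, exclusive or stricter gates, other scalings, a pseudocount, other thresholds, thinning to 1000 UMIs, removal of Adipoq barcodes and a fixed cell mix. The labels call the diet cysteine free in 1 place and cystine free in another; the second is used here. Gene models are from GENCODE and promoter windows from RefSeq, both on GRCm38.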

Additional observations from a re-analysis of the deposited data

Results flagged for a closer look

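Slc7a5, the carrier of large neutral amino acids, gave diet ratios of opposite sign in the 2 genotypes, in 2 gates. In endothelium the log2 ratio of the cystine-free to the control diet was -1.25 (-2.34 to -0.17) in Cth-/- and 0.75 (0.12 to 1.41) in Cth+/+, from 15 against 18 and 77 against 30 UMIs. With barcodes thinned to 1000 UMIs the Cth+/+ ratio was -0.34, from 9 against 11 UMIs, and then had the sign of the Cth-/- ratio. In T cells the signs were the other way round, at 1.09 (-0.73 to 3.52) in Cth-/- and -0.72 (-2.17 to 0.61) in Cth+/+, from 15 against 3 and 8 against 15 UMIs, and both intervals held 0. Of all measured genes, 16.7% in Cth-/- and 6.22% in Cth+/+ were apart for the diet in endothelium, and 35.3% and 32.7% in T cells. The share of genes apart in opposite directions is not given here, so the Slc7a5 result has no background to stand against. With 1 library in a group neither difference was tested.

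Endothelial barcodes with a UMI of Top2a or Mki67, genes of dividing cells, made up 2.15%, 8.26%, 1.38% and 0.762% of the gate in the 4 libraries. Slc7a5 in the whole gate stood at 6.90, 11.6, 10.7 and 4.51 CPM. The 8 such barcodes of each Cth-/- library held 0 Slc7a5 UMIs, with upper limits of 92.9 and 52.7 CPM, which lie above the 21.9 and 20.7 CPM of the Cth+/+ libraries. Without barcodes that held a UMI of Top2a or Mki67 the diet ratio was -1.25 in Cth-/- and 0.63 in Cth+/+, an alternative chosen after the data were seen. These ratios came from 15 against 18 and 53 against 26 UMIs. The Cth+/+ levels were then 9.68 (7.25 to 12.7) against 6.25 (4.08 to 9.15) CPM, and the intervals of the levels overlapped in both genotypes.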

How the results depend on the processing

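Comparisons of the members over all barcodes and in the progenitor gate were recomputed under the alternatives named for the processing. In phagocytes only Slc7a11 and Slc38a2 were recomputed, and in endothelium only Slc7a5 and Slc38a2, a choice made after the data were seen. No ratio of the T, mural or epithelial gates is counted here. Of 964 recomputed ratios 865 kept within their counting interval, but unevenly between alternatives. With the pseudocount all 96 kept within it. After thinning to 1000 UMIs 55 did, while 40 moved and 1 reversed, and with the mean over barcodes 75 did and 21 moved. Among all 964 recomputed ratios the sign changed in 86, of which 74 had a main interval that held 0. The other 12 concern 9 ratios, of which 2 were apart: Slc1a3 between genotypes on the cystine-free diet over all barcodes (-0.052 with at least 500 UMIs and at most 10% mitochondrial UMIs, -0.036 with fewer than 5 Adipoq UMIs) and Slc7a5 between diets in Cth+/+ endothelium (-0.34 after thinning). The other 7 lay under 1.5-fold or, for Slc1a4, were too low to count as measured. Over all barcodes they were Slc1a5 for the diet in Cth-/- (-0.08 with the filter on UMIs and mitochondria, -0.06 without Adipoq barcodes), Slc7a5 (0.06 as a mean over barcodes, 0.10 after thinning) and Slc38a1 (-0.08 with a fixed cell mix) between genotypes on the cystine-free diet, Slc3a2 (-0.03 as a mean over barcodes) and Slc7a5 (-0.42 after thinning) for the diet in Cth+/+, and Slc1a4 for the diet in Cth-/- (0.80 after thinning, from 12 against 10 UMIs). In progenitors it was Slc3a2 between genotypes on the cystine-free diet (-0.09 after thinning). Of 96 recomputed counts of members apart 20 moved. For the diet in Cth-/- over all barcodes the count of 2 was 0 with the filter on UMIs and mitochondria or without Adipoq barcodes, and 1 with barcodes in at most 1 gate, the mean over barcodes, the top 1% of barcodes left out, the pseudocount, a 2-fold threshold or thinning. For the genotypes on the cystine-free diet over all barcodes the count of 1 was 3 with barcodes in at most 1 gate or a fixed cell mix, and 2 with the mean over barcodes, the top 1% left out or thinning. In progenitors the count of 0 for the diet in Cth-/- was 1 with the mean over barcodes or thinning, and that of 0 in Cth+/+ was 1 with no minimum level. The count of 1 between genotypes in progenitors was, on each diet, 2 with no minimum level and 0 at 2-fold. Among the alternatives, the share of all genes apart is given only without Adipoq barcodes. There it was 19.3% for the diet in Cth-/- and 18.4% between genotypes on the cystine-free diet, over all barcodes. Under the other alternatives a moved count cannot be told apart from a change in that share. The causes of these moves were not tested. No paired analysis was possible because each group has 1 library.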
